A study of Mus musculus with 32 samples.

Results

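The enzymes described here carry isoprenoid units away from cholesterol synthesis. They are 10 genes taken by symbol from the 55291 symbols of all 4 deposited count tables: Ggps1, Fnta, Fntb, Pggt1b and Rabggta of protein prenylation, Dhdds and Nus1 of dolichol synthesis, and Pdss1, Pdss2 and Coq2 of ubiquinone synthesis. All 10 were found in each table and all 10 passed the filter on low counts in every comparison. RNA was sequenced from whole brains of C57BL/6J mice, either wild type (WT, Dhcr7+/+) or Dhcr7-KO (KO, Dhcr7-/-), the latter a model of Smith-Lemli-Opitz syndrome, in which the last step of cholesterol synthesis fails. The 3 prenatal stages were E12.5, E14.5 and E16.5 (embryonic days) and the last was PND0, the day of birth. Each of the 8 groups held 4 libraries. Litter, sex and number of animals per library are not given in the labels, so p-values measure the spread between these libraries. The study asked how expression in the developing brain differs between the genotypes over time.

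The mevalonate pathway builds farnesyl diphosphate from acetyl-CoA. At this branch point squalene synthase (Fdft1) commits farnesyl diphosphate to sterols, and other enzymes pass it to protein prenylation, to dolichol, the lipid on which N-glycans are assembled, and to the side chain of ubiquinone, the electron carrier of mitochondria. Sterol enzymes are known targets of the SREBP transcription factors, which act when cell cholesterol is low. In developing brain, prenylated Ras and Rab proteins take part in growth cone movement and vesicle traffic.

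Promoter letters are shown first, since SREBP factors bind sterol regulatory elements and the knockout lacks an enzyme of cholesterol synthesis. RefSeq windows on GRCm38.p6, from 250 bases before to 50 bases after the start of a gene, were held for 8 of the 10 genes and for 15 of 20 mevalonate and sterol enzymes. The letters CCAAT, on either strand, were in 3 of the 8 windows (37.5%), in 14 of the 15 mevalonate and sterol windows (93.3%) and in 41.1% of 27025 genes with a window. They were chosen after values were seen. TCACNCCAC, the letters of a sterol regulatory element, occurred on either strand in none of the 8, in 1 of the 15 (Hmgcs1) and in 1.44% of all genes. Among the other non-sterol genes it was in the window of Coq4, 1 of 8 other ubiquinone genes with a window. The E-box letters CANNTG were in 6 of the 8 windows (75%), in 10 of the 15 (66.7%) and in 75% of all genes. A match is a description of letters and not a site. The 220 bases before the start of Hmgcs1, the enzyme that makes HMG-CoA and a sterol-responsive comparison gene, are shown with 3 of the 10 genes, on the strand of the gene and with matches to TCACNCCAC or CCAAT in capitals (ATTGG is CCAAT on the other strand). They lie at chr13:119690131-119690350 (plus strand), chr13:14063489-14063708 (minus), chr4:134000883-134001102 (minus) and chr2:22895302-22895521 (plus).
Hmgcs1: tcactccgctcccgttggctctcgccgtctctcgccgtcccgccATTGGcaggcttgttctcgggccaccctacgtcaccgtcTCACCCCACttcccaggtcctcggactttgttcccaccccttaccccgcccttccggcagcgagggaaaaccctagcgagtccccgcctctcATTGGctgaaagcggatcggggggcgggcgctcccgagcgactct
Ggps1: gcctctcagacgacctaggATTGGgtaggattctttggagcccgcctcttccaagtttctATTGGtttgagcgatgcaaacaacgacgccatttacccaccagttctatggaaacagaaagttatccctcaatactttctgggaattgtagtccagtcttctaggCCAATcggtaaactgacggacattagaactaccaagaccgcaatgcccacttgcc
Dhdds: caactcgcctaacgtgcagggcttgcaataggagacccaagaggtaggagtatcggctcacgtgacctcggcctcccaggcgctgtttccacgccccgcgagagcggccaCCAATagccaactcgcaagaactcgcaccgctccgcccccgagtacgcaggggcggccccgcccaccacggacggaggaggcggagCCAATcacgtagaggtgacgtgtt
Pdss1: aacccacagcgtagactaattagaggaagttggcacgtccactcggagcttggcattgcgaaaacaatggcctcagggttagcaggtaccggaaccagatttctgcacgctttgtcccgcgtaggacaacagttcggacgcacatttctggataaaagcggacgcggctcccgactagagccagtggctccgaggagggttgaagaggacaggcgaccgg
Ggps1 held 3 CCAAT matches in this stretch and Dhdds held 2. Nus1, whose stretch is not shown, held matches at -193 and -26 bases from its start. Pdss1 held none, and neither did the windows of Fntb, Rabggta, Pdss2 and Coq2.

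Each library held between 13.87 and 28.32 M counts. Levels are given as CPM, counts scaled to a library's TMM-adjusted total. Dhcr7 itself fell from 67.1 ± 3.66 CPM (SD, n = 4) in WT to 21.9 ± 4.47 in KO at E12.5, and from 91.0 ± 19.9 to 14.6 ± 1.94 at PND0. It was lower in all 4 KO libraries than in any WT library at each stage. Neuron and progenitor markers were detected in every group. The summed level of the 6 neuron markers was 2293 to 6017 CPM. One gene symbol that holds ribosomal RNA, CT010467.1, took 0.191 to 5.64% of counts, with the highest share in E12.5 KO replicate 1 and the next in E16.5 WT replicate 1 (3.75%). Results at those stages are given below without these libraries too.

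Between genes, levels are compared only per kilobase of the longest annotated transcript. Over the 16 WT libraries Fnta, the alpha subunit shared by farnesyltransferase and geranylgeranyl transferase I, was the most abundant at 33.2 ± 2.23 CPM per kb (SD, n = 16). Coq2, which joins the polyprenyl side chain to the ring precursor of ubiquinone, followed at 25.1 ± 2.16 CPM per kb. Nus1 and Dhdds, the paired subunits of the cis-prenyltransferase of dolichol synthesis, stood at 17.4 ± 2.28 and 16.51 ± 2.18 CPM per kb, and their ranges overlapped. The ranges of Fntb (13.6 ± 2.15), Ggps1 (13.6 ± 0.981) and Rabggta (13.1 ± 2.54 CPM per kb) overlapped too. Pdss1, Pggt1b and Pdss2 were lowest, at 8.48 ± 1.21, 6.05 ± 1.39 and 2.78 ± 0.432 CPM per kb. Pdss1 and Pdss2 encode the subunits of one enzyme, the synthase of the ubiquinone side chain. Neighbours in this order whose ranges did not overlap were Fnta and Coq2, Coq2 and Nus1, and Pggt1b and Pdss2. With the union of exons as length the order changed only among Fntb, Ggps1 and Rabggta, but some gaps closed. Coq2 and Nus1 then had means of 16.67 and 16.46 CPM per kb, and Pdss1 and Pggt1b 3.891 and 3.848. Ranges were not compared by that length.

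**Figure D1:**
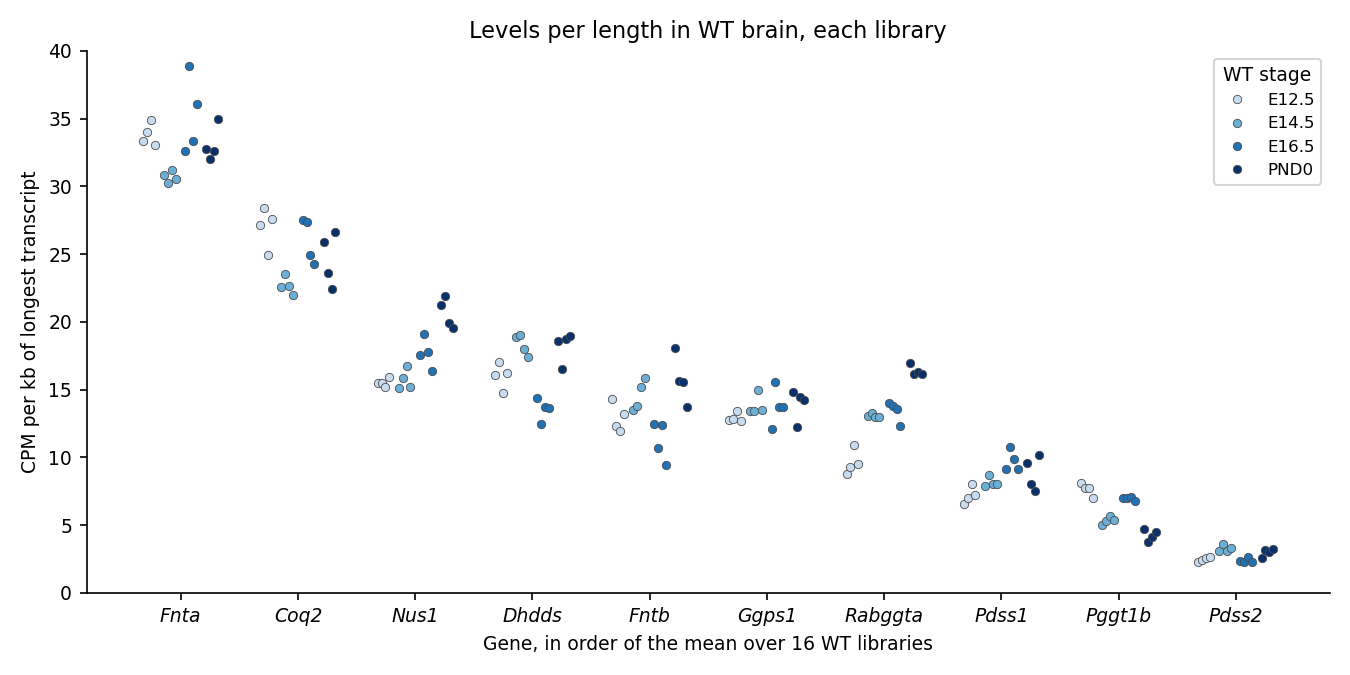
Each point is a WT library (4 per stage), with CPM per kb of the longest transcript on the vertical axis and the 10 genes on the horizontal axis in order of their mean. Fnta lies above 30 in every library and Pdss2 below 4, and the 5 genes from Nus1 to Rabggta share ranges with their neighbours.

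In WT brain 9 of the 10 genes differed between stages (edgeR quasi-likelihood F test over the 4 stages, Benjamini-Hochberg adjusted p under 0.05), where 84.1% of all genes tested did. From E12.5 to PND0, 6 genes rose (Rabggta, Nus1, Pdss1, Fntb, Pdss2 and Dhdds; 36.2% of all genes tested rose) and 1 fell (Pggt1b; 37.9% fell). Their median log2 difference was 0.22, beside -0.04 for all genes. These shares are set against a background in which most genes change, so the counts alone do not set the genes apart. Stage and deposited table, with any batch that goes with it, cannot be told apart. Beside these changes in WT, the summed neuron markers ranged from 2293 to 4183 CPM at E12.5 and from 5250 to 5945 at PND0, and the 4 astrocyte markers from 77.6 to 127.3 CPM and from 398.7 to 487.8. The 6 progenitor markers ranged from 1850 to 2509 CPM at E12.5 and from 896.4 to 950.4 at PND0, and the 6 erythroid markers from 1621 to 8430 CPM and from 200.4 to 267.2. The 5 markers of meninges and fibroblasts ranged from 971.7 to 2096 CPM and from 378.3 to 438.8, and the 4 choroid plexus markers from 106.8 to 196.5 CPM and from 297.5 to 600.6. The microglia and endothelium lists, of 4 markers each, were higher at PND0 without overlap too (36.9 to 41.6 and 46.7 to 67.4 CPM; 139.3 to 162.9 and 167.6 to 219.4 CPM). No marker of these lists was at 0. Their part in the stage differences was not tested. In bulk tissue, fewer cells of a type and less RNA per cell cannot be told apart.

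Rabggta, the alpha subunit of Rab geranylgeranyl transferase, which prenylates the Rab proteins of vesicle traffic, showed the largest rise of the 10. Its WT libraries held 25.2, 26.8, 31.5 and 27.4 CPM at E12.5. At PND0 they held 48.8, 46.5, 46.9 and 46.6 CPM. All PND0 libraries lay above all E12.5 libraries, a log2 difference of 0.76 (SE 0.07, adjusted p = 1.82e-08), with called steps of 0.44 to E14.5 (adjusted p = 5.10e-05) and 0.28 from E16.5 to PND0 (adjusted p = 0.00252). The last step was not called once each library's trend of counts over transcript length was removed (0.16, adjusted p = 0.0680). The beta subunit, Rabggtb, went the other way: 57.0 ± 6.26 CPM at E12.5 and 34.5 ± 3.28 at PND0 (SD, n = 4), a log2 difference of -0.73 (SE 0.08, adjusted p = 3.25e-07). Ptar1, an alpha subunit that pairs with Rabggtb in another prenyltransferase, fell by 1.10 on the log2 scale (adjusted p = 4.25e-08).

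Pggt1b, the beta subunit of geranylgeranyl transferase I, was the only 1 of the 10 genes called lower at PND0 than at E12.5. In WT it held 60.4, 57.6, 57.8 and 52.4 CPM at E12.5. At E14.5 it held 37.5, 39.8, 42.2 and 40.3 CPM. At E16.5 it was back at 52.1, 52.2, 52.8 and 50.6 CPM, and at PND0 it stood at 35.3, 28.2, 31.0 and 33.4 CPM. No stage overlapped with the next in the order of age. The steps were -0.51, 0.38 and -0.70 on the log2 scale (adjusted p = 1.22e-05, 0.000299 and 3.17e-07).

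Fntb, the beta subunit of farnesyltransferase, shares the alpha subunit Fnta with Pggt1b, and its called steps had the opposite sign to those of Pggt1b. Its WT libraries held 35.2, 36.1, 39.7 and 41.5 CPM at E14.5. They held 32.5, 27.9, 32.3 and 24.6 CPM at E16.5, and 47.1, 40.8, 40.6 and 35.9 CPM at PND0. The step down to E16.5 was -0.38 (SE 0.10, adjusted p = 0.00480) and the step up to PND0 was 0.48 (SE 0.10, adjusted p = 0.000616), both without overlap, while the first step of 0.17 was not called (adjusted p = 0.152). Within a WT library the log2 ratio of Pggt1b to Fntb counts was 0.76 ± 0.14 (E12.5), 0.07 ± 0.08 (E14.5), 0.83 ± 0.17 (E16.5) and -0.36 ± 0.18 (PND0; SD, n = 4). Fnta varied less than either. It was 59.2 ± 0.749 CPM at its lowest (E14.5) and 68.0 ± 5.50 at its highest (E16.5), and its call over the stages (adjusted p = 0.0303) was lost without a filter on low counts (0.163), with length offsets (0.330), and without any 1 of 6 WT libraries. These were the 4 E14.5 libraries and E16.5 replicates 2 and 4, with adjusted p up to 0.0797.

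Ggps1, the synthase of geranylgeranyl diphosphate, was the 1 gene not called over the WT stages (adjusted p = 0.528). Its stage means lay between 54.9 ± 1.38 CPM (E12.5) and 59.1 ± 4.94 CPM (PND0), and the interval of the log2 difference between them was -0.06 to 0.26.

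The dolichol pair had called steps of opposite sign only from E14.5 to E16.5, where Nus1 rose by 0.18 (adjusted p = 0.0197) and Dhdds fell. From E16.5 to PND0 both were called higher, Nus1 by 0.22 (adjusted p = 0.00476). Neither of these Nus1 steps held under every alternative. Nus1 rose from 71.3, 71.2, 69.8 and 73.4 CPM at E12.5 to 97.9, 101, 91.7 and 90.1 CPM at PND0, without overlap (log2 difference 0.41, SE 0.06, adjusted p = 5.07e-06). With length offsets this rise was 0.16 and still called. Dhdds held 60.7, 61.3, 58.0 and 55.9 CPM at E14.5. Its E16.5 libraries held 46.2, 40, 44.1 and 43.8 CPM, and its PND0 libraries 59.8, 53.1, 60.3 and 60.9. The E16.5 libraries lay below both neighbouring stages, with steps of -0.44 (adjusted p = 3.27e-05) and 0.42 (adjusted p = 3.73e-05). Its difference from E12.5 to PND0 was 0.18 (adjusted p = 0.0212), and was -0.02 and not called with length offsets.

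Of the ubiquinone genes, Pdss2 rose by 0.39 on the log2 scale to E14.5 (adjusted p = 0.00452) and fell again to E16.5. Its WT libraries held 9.381, 9.945, 10.39 and 10.91 CPM at E12.5, which overlapped those of E16.5. The later stages stood at 13.3 ± 1.11 CPM (E14.5), 9.67 ± 0.757 (E16.5) and 12.2 ± 1.23 (PND0; SD, n = 4). The fall was -0.46 (adjusted p = 0.00156) and the rise after it 0.33 (adjusted p = 0.0150), the latter with overlapping groups and not called with length offsets (adjusted p = 0.335), without a filter on low counts (0.101) or from the 8 libraries of both stages alone (0.0852). Pdss1 rose by 0.29 from E12.5 to PND0 (14.02 ± 1.17 to 17.2 ± 2.45 CPM, adjusted p = 0.0176), with overlapping groups. Coq2 fell by 0.25 to E14.5 (47.1 ± 2.57 to 39.6 ± 1.10 CPM, adjusted p = 0.00562) and rose by 0.20 to E16.5 (adjusted p = 0.0269). With length offsets neither of these Coq2 steps was called (adjusted p = 0.0664 and 0.474).

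Step by step, 3 of the 10 rose and 2 fell from E12.5 to E14.5, where 27.3% of all genes tested rose and 27.6% fell. From E14.5 to E16.5, 4 rose and 3 fell (24.4% and 24.0% of all genes). From E16.5 to PND0, 5 rose and 1 fell (27.9% and 25.6%). Of these 18 calls, 10 held under every alternative run, which included leaving out each WT library: Pggt1b at all 3 steps, Dhdds and Fntb into and out of E16.5, Rabggta and Pdss2 to E14.5, and Pdss2 from E14.5 to E16.5. Of the 7 calls from E12.5 to PND0, those of Pggt1b, Rabggta and Nus1 did. The KO group means moved with the same sign as the WT means in 27 of 30 steps. The 3 exceptions were small steps: Ggps1 and Coq2 from E16.5 to PND0 and Nus1 from E12.5 to E14.5, from -0.08 to 0.07 on the log2 scale. End to end, from E12.5 to PND0, the sign was shared by 8 of 10 genes. Pdss1, whose WT group means differed by 0.29 on the log2 scale, differed by -0.01 in KO, and Ggps1 differed by 0.10 in WT and -0.08 in KO. Whether these stage differences differ between genotypes was tested only over all stages, as given below.

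**Figure D2:**
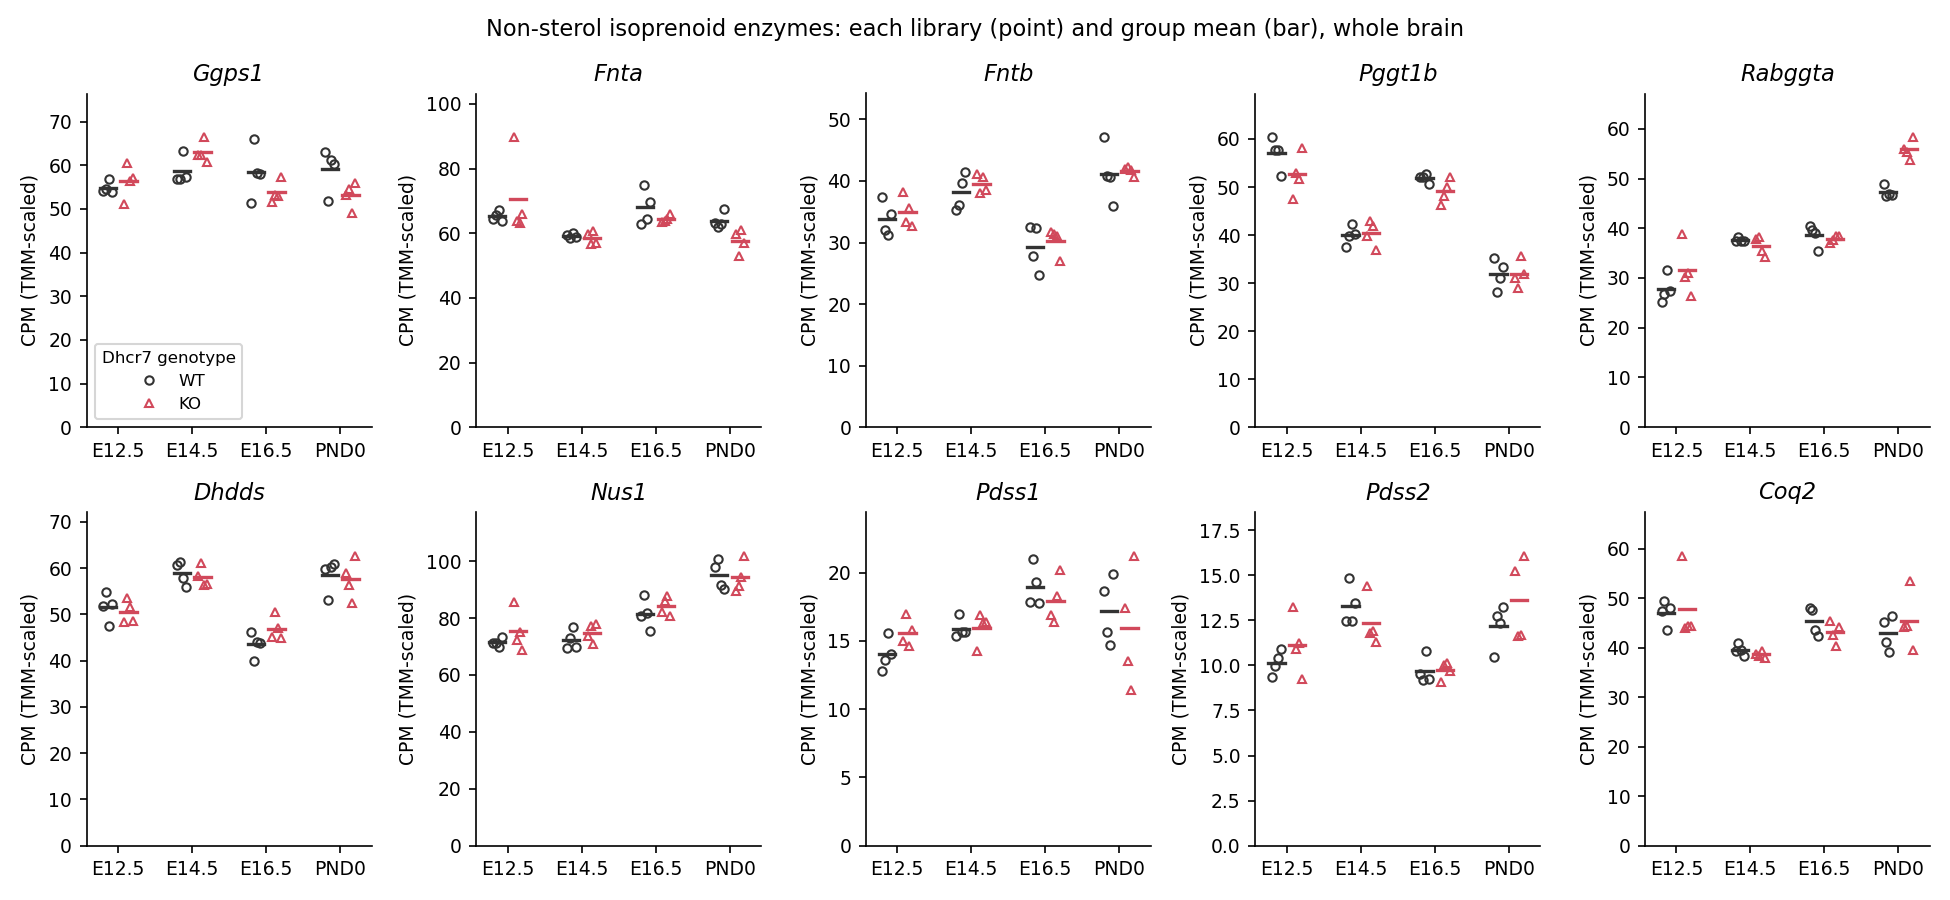
Each panel plots 1 gene, with the stage on the horizontal axis and CPM (TMM-scaled, from 0) on the vertical axis. Points are libraries (circles WT, triangles KO, 4 per group) and bars are group means. Rabggta climbs with age, Pggt1b steps down, up and down, and WT and KO points overlap in every panel and stage other than Rabggta and Fnta at PND0.

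The 29 other genes of the non-sterol branches were read beside the 10. In WT from E12.5 to PND0, 4 rose and 11 fell, with a median log2 difference of -0.10. Among all genes tested 36.2% rose and 37.9% fell, with a median of -0.04. Whether the counts of any list below differ from those shares was not tested. Of the 8 other prenylation genes, none rose and 5 fell, among them Ptar1, Rabggtb and the CAAX protease Rce1 (-0.63, adjusted p = 1.16e-05). Of 8 other dolichol genes, 2 fell: Dpm3, a subunit of dolichol-phosphate mannose synthase, by 1.27 on the log2 scale (adjusted p = 5.52e-07), and Dpagt1, which starts the lipid-linked N-glycan, by 0.23 (adjusted p = 0.0107). Of 10 other ubiquinone genes, 4 rose and 3 fell, with Coq8a, an atypical kinase, at 1.21 (adjusted p = 0.000324) and the hydroxylase Coq7 at -1.005 (adjusted p = 1.63e-07). Of the 3 remaining users of isoprenoids, the tRNA isopentenyltransferase Trit1 fell by 0.24 (adjusted p = 0.0109). In the 20 mevalonate and sterol enzymes, 9 rose and 1 fell (median 0.26), led by Hmgcs1 at 0.99 (adjusted p = 2.27e-06), and by Lbr, a sterol reductase of the nuclear envelope, at -1.62 (adjusted p = 4.60e-11).

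No difference between genotypes passed the test for any of the 10 genes. This held at every stage (edgeR quasi-likelihood test on the 8 libraries of a stage, Benjamini-Hochberg adjusted p under 0.05). Of all genes tested, 0.0177% passed at E12.5, 0.527% passed at E14.5, 0.0462% passed at E16.5 and 1.44% passed at PND0, so a count of 0 among 10 is near the background. At an unadjusted p under 0.05 there was 1 gene at E14.5 (Ggps1), 1 at PND0 (Rabggta) and none at E12.5 or E16.5. Of all genes tested, 796 of 16948, 1557 of 17837, 2001 of 17328 and 3130 of 17420 were under it, in the order of the stages. These counts among the 10 do not set them apart. DESeq2 called none of the 10 at any stage. The median log2 change of the 10, KO minus WT, was 0.04, -0.01, -0.06 and -0.01 in the order of the stages. The 95% intervals of the single genes, taken at their outermost, reached from -21.6% to +34.9% at E12.5 and from -29.4% to +41.1% at PND0. They were closer to 0 in between, from -19.4% to +15.2% (E14.5) and from -18.3% to +18.1% (E16.5).

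The mevalonate and sterol enzymes gave the comparison on the same libraries. At E14.5, 14 of the 20 were called higher in KO and none lower, among them Hmgcs1 at a log2 change of 0.48 (SE 0.03, adjusted p = 2.72e-14) and Fdft1 at 0.43 (SE 0.04, adjusted p = 2.82e-11). At E16.5, 3 were called higher, among them Mvd and Sqle, and at PND0, 4 (Mvd, Acat2, Tm7sf2 and Nsdhl). At E12.5 none was called, with Hmgcs1 at 0.78 (adjusted p = 0.264; 0.000134 in the fit of all 32 libraries and 1.43e-06 with DESeq2). The median of the 20 was 0.48, 0.34, 0.25 and 0.36 in the order of the stages. The interval of every one of the 10 genes lay wholly below that median at the 3 embryonic stages, and that of 8 did at PND0. Rabggta and Pdss2 were the other 2, with upper bounds of 0.42 and 0.50. The median is set here without its own uncertainty, so this is no test between the branches. At E16.5 the margin was narrow, with the highest upper bound at 0.2398 (Dhdds) and the median at 0.2475. That these enzymes rise in the knockout was known when the list was chosen.

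Over the 4 stages together, in a fit of all 32 libraries, none of the 10 was called (0.558% of all genes tested were), and their mean KO effects ran from -0.05 (Pggt1b) to 0.09 (Rabggta, SE 0.04, unadjusted p = 0.0397, adjusted p = 0.368). The outermost interval bounds of the 10 were -9.31% and +12.51%. Rabggta was the only 1 of them with an unadjusted p under 0.05, where 2425 of 19541 genes tested had one. Of the 20 mevalonate and sterol enzymes 17 were called higher, with a median of 0.36 and Mvd, Hmgcs1 and Nsdhl at 0.52, 0.52 and 0.44. None of the 29 other non-sterol genes was called in any of these comparisons, and their median mean effect was 0.01. In the test of whether the KO effect changed with stage none of the 10 was called (0.0256% of all genes tested). Rabggta and Ggps1 had unadjusted p = 0.0317 and 0.0489 there (adjusted p = 0.330 and 0.368, edgeR quasi-likelihood F test). An unadjusted p under 0.05 was found in that test for 2635 of 19541 genes.

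**Figure D3:**
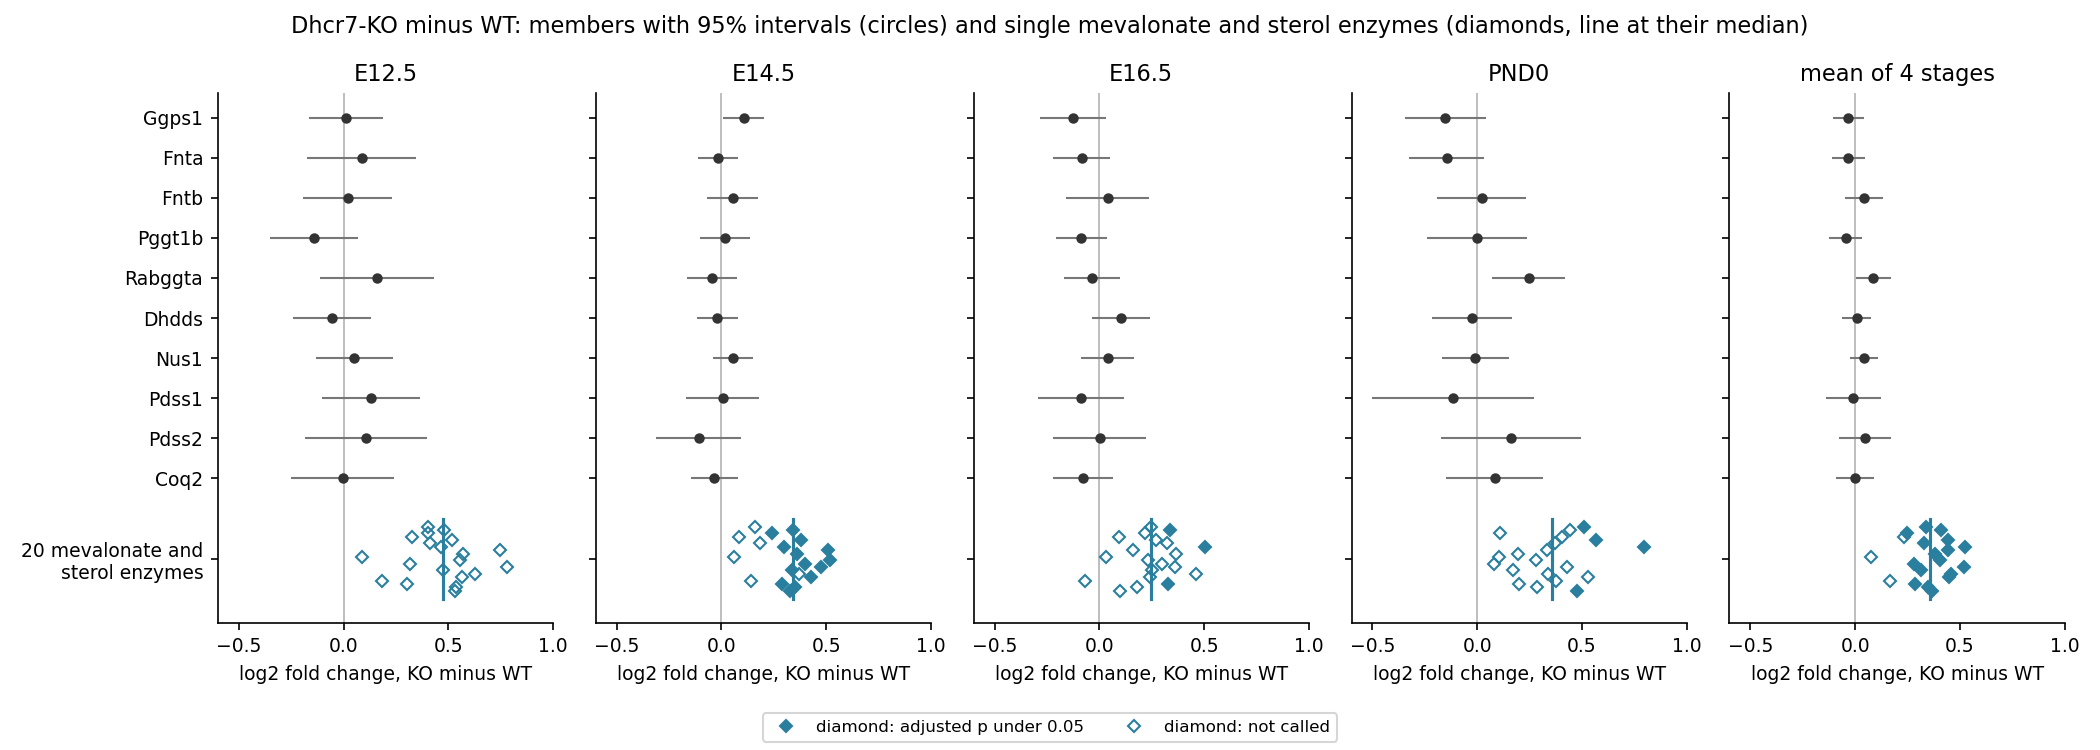
Panels show the log2 fold change, KO minus WT, at each stage and as the mean of the 4 stages. Black circles with bars are the 10 genes with 95% intervals, blue diamonds are the 20 mevalonate and sterol enzymes (filled where the adjusted p was under 0.05), and the blue line is their median. The circles lie near 0, and the diamonds lie to the right around medians of 0.25 to 0.48.

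E12.5 KO replicate 1, the library with 5.64% of counts in CT010467.1, stood apart for several genes. Its Fnta level was 89.8 CPM, against 63.8, 63.0 and 65.8 in the other KO libraries. Its Coq2 level was 58.6 CPM, against 44.0, 44.5 and 44.5. It was also the highest KO library for Rabggta (38.8), Nus1 (85.5), Pdss2 (13.2) and Fntb (38.2 CPM), and the lowest for Ggps1 (51.1), Pggt1b (47.6) and Dhdds (48.3 CPM). Without it the E12.5 changes of Fnta, Fntb and Nus1 turned from 0.09, 0.02 and 0.05 to -0.06, -0.03 and -0.02, Coq2 stood at -0.12, and none of the 10 was called (smallest adjusted p = 0.565). Without it the median of the 20 sterol enzymes at E12.5 was 0.46, and 1 of them was called.

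At E16.5 without WT replicate 1, none of the 10 was called either. Ggps1 came nearest: its change went from -0.13 (adjusted p = 0.536) to -0.18 (adjusted p = 0.216). Its WT libraries held 51.4, 65.9, 58.1 and 58.1 CPM and its KO libraries 51.5, 53.2, 53.1 and 57.4 CPM, so the groups overlapped through WT replicate 1. At E14.5 Ggps1 was on the other side, with 56.9, 56.9, 63.4 and 57.4 CPM in WT and 62.5, 62.3, 66.5 and 60.8 in KO (log2 change 0.11, adjusted p = 0.552). At PND0 it was 63.0, 51.9, 61.3 and 60.3 in WT and 53.2, 54.5, 49.2 and 55.9 in KO (-0.15, adjusted p = 0.407). Groups overlapped in each case.

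Groups that did not overlap between WT and KO were found for none of the 10 before birth, where all genes tested had such groups in 2.73% (E12.5), 4.79% (E14.5) and 6.45% (E16.5) of cases, and for 2 of the 10 at PND0, where 11.7% did. Rabggta was higher in KO, with 56.0, 55.3, 53.8 and 58.4 CPM against 48.8, 46.5, 46.9 and 46.6 in WT. Its log2 change was 0.24 (SE 0.08, unadjusted p = 0.00900, adjusted p = 0.129). The adjusted p was 0.0642 in the fit of all 32 libraries and 0.0607 with DESeq2, and the change lay between 0.23 and 0.26 under every alternative. Rabggtb showed 34.5 ± 3.28 CPM in WT and 44.4 ± 6.67 in KO at PND0 (SD, n = 4; log2 change 0.37, adjusted p = 0.118), with overlapping groups. It was called without a filter on low counts (adjusted p = 0.0428). At E16.5 Rabggtb was lower in KO (log2 change -0.16, edgeR quasi-likelihood unadjusted p = 0.0495, adjusted p = 0.431). A change of its KO effect with stage was not called (adjusted p = 0.312). Of 32 runs with 1 library left out, only that without E12.5 KO replicate 1 called it (0.0297), and 797 genes were called in that run. Fnta was lower in KO, with 59.9, 53.0, 60.9 and 56.9 CPM against 63.2, 61.8, 62.9 and 67.4 (log2 change -0.15, adjusted p = 0.392).

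Some marker lists differed in range between WT and KO, and they are given here without a test. Of the single genes tested, 6.45% at E16.5 and 11.7% at PND0 had groups that did not overlap. At E16.5 the 6 progenitor markers summed to 1111 to 1205 CPM in KO and 1219 to 1402 in WT, without overlap and with none at 0. At PND0 the 4 choroid plexus markers summed to 602.4 to 959.8 CPM in KO and 297.5 to 600.6 in WT, with none at 0 and a narrow gap between the groups. The 4 hindbrain and spinal cord markers summed to 0.240 to 0.528 CPM in KO, with Hoxb4, Hoxa5 and Hoxb8 at 0, and to 1.28 to 6.45 in WT, with Hoxb4 and Hoxb8 at 0. These KO sums are near the floor, since 3 counts in a library equal 0.106 to 0.216 CPM. The 6 erythroid markers summed to 234.5 to 2296 CPM in KO and 200.4 to 267.2 in WT, with overlap. Their part in the genotype values of the 10 genes and of the sterol enzymes was not tested.

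At the branch point, the ratio of Fdft1 to Ggps1 counts within a library sets squalene synthase against the synthase of geranylgeranyl diphosphate and needs no scaling between libraries. The pair was chosen with the rise of Fdft1 in these libraries known. The ratio is therefore not a separate result, and its p-values are not independent support. Of the single stages, Fdft1 itself was called only at E14.5. The ratio also holds the uncalled log2 changes of Ggps1, which were 0.01, 0.11, -0.13 and -0.15 in the order of the stages. Its log2 value in WT was 1.10, 1.39, 1.44 and 1.48 at E12.5, against 2.09, 1.88, 1.98 and 1.72 in KO. At E14.5 it was 1.25, 1.32, 1.18 and 1.31 in WT and 1.61, 1.67, 1.46 and 1.61 in KO. At PND0 it was 1.46, 1.78, 1.52 and 0.90 in WT and 2.15, 2.05, 2.003 and 2.23 in KO. Groups did not overlap at these 3 stages, with mean differences of 0.56, 0.32 and 0.69 (exact two-sided permutation p = 0.0286 each, the smallest that 4 against 4 allows; 0.0381 adjusted over the 4 stages). At E16.5 the means were 1.66 ± 0.23 in WT and 2.02 ± 0.09 in KO (SD, n = 4; exact permutation p = 0.0571, adjusted 0.0571), with overlap through WT replicate 1 at 1.96.

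Ratios within the non-sterol branches did not show a difference between genotypes past the threshold. The mean difference of the log2 ratio of Pggt1b to Fntb, KO minus WT, lay between -0.17 and -0.03 over the 4 stages (exact permutation p from 0.229 to 0.8286, n = 4 per group). That of Nus1 to Dhdds lay between -0.06 and 0.10 (exact permutation p from 0.2 to 0.886). In WT the latter ratio was 0.47 ± 0.08, 0.29 ± 0.09, 0.91 ± 0.16 and 0.70 ± 0.16 in the order of the stages (SD, n = 4).

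**Figure D4:**
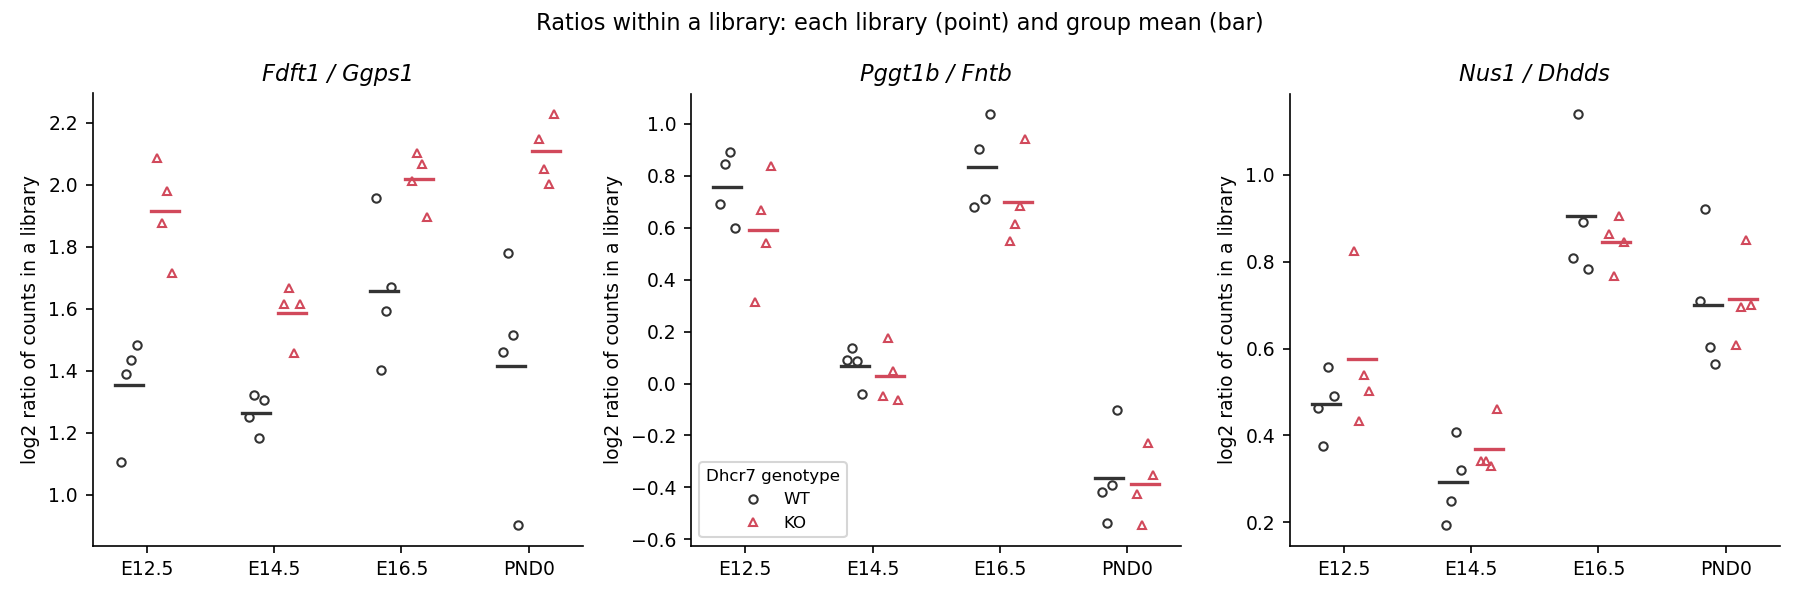
Vertical axes give the log2 ratio of counts of 2 genes in a library, and horizontal axes the stage. Points are libraries (circles WT, triangles KO, 4 per group) and bars are group means. For Fdft1 over Ggps1 the KO points lie above all WT points at each stage but E16.5, and in the panels of Pggt1b over Fntb and Nus1 over Dhdds the genotypes overlap at every stage.

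For the 3 genes with the largest WT change from E12.5 to PND0, the genes nearest in pattern were looked up as the smallest root mean square difference over the 8 centred group means of log2 CPM, among 16064 genes whose mean level reached 1 CPM. Nearest to Pggt1b were Ireb2 (0.032), Tet2 (0.037) and Uba6 (0.045). Among the nearest to Rabggta were Vtn (0.051) and Eri3 (0.055), and nearest to Nus1 were Emc3 (0.033), Mfsd11 (0.037) and Rab7 (0.038). All share the libraries and stages of these data.

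On GRCm38 with GENCODE M21 the 10 genes are protein coding, with longest transcripts of 1743 to 7477 nucleotides (median 3050, beside 3181 for the genes tested at PND0). Some share ground with neighbours. Ggps1 (chr13:14050659-14063488, minus strand) overlaps the opposite-strand gene Arid4b at its start. Fntb (chr12:76765589-76921412, plus strand) overlaps Churc1 on its own strand and spans Gpx2 and Rab15 on the other. Pdss1 (chr2:22895522-22940266, plus strand) meets Abi1 on the other strand, and Coq2 (chr5:100654723-100675140, minus strand) meets the antisense gene Gm15777. Whether the counting used strand is not given in the sources used here, so for these 4 genes reads of an opposite-strand partner cannot be told apart. Strand would not separate reads where Fntb and Churc1 overlap. Rabggta (chr14:55715416-55722263, minus), Dhdds (chr4:133969028-134000918, minus) and Nus1 (chr10:52417547-52440183, plus) overlap no other annotated gene.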

How the data were processed

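Raw counts per gene symbol were used as deposited by the authors, in 1 table per stage with 8 libraries each, neither scaled nor filtered. Per the labels' protocols RNA was enriched for polyadenylated transcripts and sequenced as paired reads. Per the submitters' processing notes, HISAT2, SAMtools, featureCounts and DESeq2 were used with build mm10, and versions and strand settings are not given in the sources used here. Of 55291 symbols, 53180 matched GENCODE M21 by name, 404 through a synonym, 115 met several loci and 1592 had no match.

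Comparisons used edgeR 4.0.16 (R 4.3.3): TMM scaling, a quasi-likelihood fit with robust dispersions, genes kept by filterByExpr at count 10 and total 15, and Benjamini-Hochberg adjustment over all genes tested with threshold 0.05. Genotypes were fitted on the 8 libraries of a stage, WT stages on 16 libraries, and the mean and interaction on all 32. SE is the log2 change divided by the square root of F, and intervals are 95%. Printed CPM uses TMM over the 32 libraries. E14.5 had the least spread and E12.5 the most: the biological coefficient of variation was 19.9%, 6.25%, 9.99% and 16.6% at E12.5, E14.5, E16.5 and PND0. No library pair within a group was identical. Scripts were tested on simulated data.

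Alternatives were RLE scaling, no filter on low counts, DESeq2 1.42.0, a replicate block, length offsets (a smooth trend over transcript length removed per library), a sex-gene covariate, other sets of libraries and leaving out each library. The genes and lists were chosen with earlier results of these data known. Named were the 10 genes, Dhcr7 and, of the other lists, up to 3 genes with the smallest p among those called, or 1 where none was. Fdft1, Ggps1 and the other ratio pairs, the CCAAT letters and Rabggtb beyond that rule were chosen after values were seen. Some genes that these rules name are not reported here.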

Additional observations from a re-analysis of the deposited data

Results flagged for a closer look

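In each group of 4 libraries the highest or lowest value was compared with its nearest neighbour by Dixon's ratio at its 95% critical value. Of 80 groups, 6 held a library that stood apart, where chance gives about 1 in 20. Fnta and Coq2 were high in E12.5 KO replicate 1, at 89.8 and 58.6 CPM. Ggps1 was high in E14.5 WT replicate 3, at 63.4 CPM, and Rabggta in E14.5 WT replicate 2, at 38.3 CPM, where the 4 libraries span little. Fntb was low in E16.5 KO replicate 4, at 27.1 CPM, and Dhdds was low in PND0 WT replicate 2, at 53.1 CPM. Leaving out any of these libraries made no call among the 10 genes in a genotype comparison.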

How the results depend on the processing

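None of the 10 genes was called between genotypes in any of the 15 alternatives per stage or the 38 for the mean effect and the interaction, and the smallest adjusted p was 0.0607 (Rabggta at PND0, DESeq2). The number of all genes past the threshold moved more. In the fit of all 32 libraries it was 52, 4, 3 and 1205 at E12.5, E14.5, E16.5 and PND0. With no filter on low counts it was 146, 233 and 1091 at E14.5, E16.5 and PND0, 72 for the mean effect and 11 for the interaction. With DESeq2 it was 30, 150 and 921 at E12.5, E16.5 and PND0, 355 for the mean effect and 346 for the interaction. With length offsets it was 49 at PND0 and 9 for the interaction, and with the sex-gene covariate 4 at E16.5. With the replicate block it was 6 at E12.5, 5 at E16.5 and 0 for the interaction. The deviations of same-numbered WT and KO libraries had correlations from -0.278 to 0.305. Of the 16 pairs, 3 lay above 0.1 and 4 correlated best with their own number. With litter not given and 4 libraries per group, this cannot tell whether the numbers pair libraries. The block ended 1 call among the 10, that of Fnta over the WT stages (adjusted p = 0.0553). Leaving out 1 library gave 1 to 5, 52 to 155, 3 to 14 and 35 to 263 genes at the 4 stages (E14.5: 155 with WT replicate 2 left out, 52 with WT replicate 4 and 57 with KO replicate 1; PND0: 62 and 35 with WT replicate 1 or 3 left out, 38 and 95 with KO replicate 1 or 2), 63 to 256 for the mean effect (256 without E12.5 KO replicate 1) and 0 to 797 for the interaction (797 without that library).

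Counts among the 10 in WT moved at 3 contrasts. With length offsets 3 were called from E12.5 to E14.5 and 4 from E12.5 to PND0, and without a filter 4 from E14.5 to E16.5 and 3 from E12.5 to PND0. Leaving out 1 library gave 4 (without E16.5 WT replicate 2) to 8 from E14.5 to E16.5. Calls among the 10 that ended without 1 library, with the largest adjusted p, were Dhdds to E14.5 (without E12.5 WT replicate 3 or E14.5 WT replicate 1 or 2, 0.0649), Fnta to E16.5 (E16.5 WT replicate 2, 0.0544), Nus1 to E16.5 (E14.5 WT replicates 1 and 4, E16.5 WT replicate 2, 0.0871) and Coq2 to E16.5 (E14.5 WT replicates 1, 3 and 4, E16.5 WT replicates 1 and 2, 0.0850). From E12.5 to PND0 they were Fntb (E12.5 WT replicates 2 and 3, PND0 WT replicate 1, 0.0831), Dhdds (E12.5 WT replicate 3, PND0 WT replicates 3 and 4, 0.0864), Pdss1 (E12.5 WT replicate 1, PND0 WT replicates 1 and 4, 0.0736) and Pdss2 (any of 9 WT libraries, E12.5 replicates 1 to 3, E16.5 replicates 1, 2 and 4 and PND0 replicates 2 to 4, 0.109).

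Changes of sign concerned values near 0 that were not called, other than those named next. With length offsets Dhdds from E12.5 to PND0 went from called to -0.020, and Ggps1 from E16.5 to PND0 became -0.19 and was called (adjusted p = 0.0418). The cause was not tested. Also with length offsets, Coq2 at E12.5 was 0.0013, Pdss2 at E16.5 -0.017, Pggt1b and Nus1 at PND0 0.17 and 0.084, and the mean effect of Pggt1b 0.011. In WT, Ggps1 was -0.015, 0.070 and -0.14 for E12.5 to E14.5, E14.5 to E16.5 and E12.5 to PND0, Nus1 was -0.093 to E14.5, and Fnta was 0.00069 and 0.019 to PND0 from E16.5 and E12.5, with Coq2 at 0.068 from E16.5. In the fit of all 32 libraries Coq2 at E12.5 was 0.023. With the sex-gene covariate Ggps1 and Coq2 at E12.5 were -0.012 and 0.018, and Pggt1b at PND0 0.0038. Without a filter Pdss1 at E14.5 was -0.0019, Pggt1b at PND0 0.0062, the mean effect of Coq2 0.00057, and Ggps1 from E16.5 to PND0 -0.023. DESeq2 gave Pggt1b 0.0029 at PND0, and RLE scaling a mean effect of Coq2 of 7.6e-05. From the 8 libraries of both stages alone, Nus1 to E14.5 was -0.0010, and Ggps1 was 0.0016 to E16.5 and -0.040 to PND0.

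Leaving out 1 library changed the sign of these uncalled values within the following ranges. At E12.5 they were -0.018 to 0.047 for Ggps1, -0.057 to 0.14 for Fnta, -0.034 to 0.081 for Fntb, -0.021 to 0.087 for Nus1 and -0.12 to 0.041 for Coq2. At E14.5 they were -0.015 to 0.056 for Pggt1b and -0.027 to 0.058 for Pdss1, and at E16.5 -0.034 to 0.094 for Fntb and -0.020 to 0.058 for Pdss2. At PND0 they were -0.036 to 0.094 for Fntb, -0.067 to 0.049 for Pggt1b, -0.077 to 0.017 for Dhdds, -0.045 to 0.015 for Nus1, -0.28 to 0.014 for Pdss1 and -0.0082 to 0.15 for Coq2. For the mean effect they were -0.0026 to 0.019 for Dhdds, -0.052 to 0.023 for Pdss1 and -0.028 to 0.015 for Coq2. In WT they were -0.013 to 0.034 for Nus1 to E14.5, -0.071 to 0.049 for Ggps1 to E16.5 and -0.050 to 0.069 for Ggps1 from E16.5 to PND0.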
